A study of Gallus gallus with 54 samples.

Results

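The 61 genes described here are ENSGALG00000016400, an Ensembl identifier of a chicken gene, and the 60 genes whose RNA level followed it most closely from library to library in each of heart, breast muscle and spleen. They were chosen by measured values. The level, log2(CPM + 1) with CPM as TMM-scaled counts per 1e6 counts, was centred on the mean of each altitude within a tissue. Pearson's r with ENSGALG00000016400 was then taken over the 18 libraries of each tissue, and the 60 genes with the highest smallest r of the 3 tissues were kept. Each file listed 24881 identifiers, of which 21515 had a count in any library and 9413 had a mean of at least 1 CPM in all 3 tissues. The 61 genes are 61 of those 9413.

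The samples were indigenous Ethiopian chickens of 2 breeds, one labelled low altitude and adapted to heat, the other high altitude and not adapted to heat. Polyadenylated RNA was sequenced from heart, breast muscle and spleen, in 9 low altitude libraries (codes L1 to L9) and 9 high altitude libraries (codes H1 to H9) of each tissue, 54 in all. The labels use the same codes in the 3 tissues without saying that a code stands for a single bird. They name no age, sex, rearing place or batch. Breed, altitude of origin and heat adaptation therefore cannot be told apart. Libraries of a group are the replicates, and because nothing states that they came from separate animals, the p-values measure the spread between these libraries.

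Genes whose RNA levels vary together between samples are said to be co-expressed. Grouping genes in this way needs no knowledge of their function, and by itself it does not show what they share. The tissues differ in make-up: heart is a continuously working oxidative muscle, chicken breast muscle is a fast glycolytic flight muscle, and the spleen is a blood-filtering lymphoid organ rich in white blood cells. The files do not pair the identifiers with gene names, and 0 of them matched the reference table of 25635 genes, so no name or role is given for any of the 61. In tissue RNA of this kind, fewer cells of a type and less RNA per cell cannot be told apart.

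Library totals ran from 12.4 to 15.2 M counts in heart (M, mega), 9.31 to 13.1 M in breast muscle and 11.6 to 14.3 M in spleen. Some libraries stood apart before any comparison was made. For the mean level of the 61 genes, the 5 highest codes were the same in the 3 tissues: L3, H4, H7, H1 and H8. The breast muscle libraries of H1, H4, H7 and H8 also had the lowest shares of counts in 100 genes selective for that tissue, at 4.08%, 9.73%, 12.9% and 7.64%, and the lowest median Spearman correlations with the other libraries of the tissue, at 0.840, 0.891, 0.890 and 0.868. The breast muscle of L3 did not share this, with 28.9% and 0.933. The altitude and tissue comparisons below are also given without some of these libraries.

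In heart, ENSGALG00000016400 had 6.28 CPM in the lowest low altitude library, a median of 20.7 CPM and 3472 CPM in L3, against a lowest value of 5.71 CPM, a median of 47.0 CPM and 1184 CPM in H4 among the high altitude libraries. L3 lay 82.9-fold above the next low altitude heart, L4, at 41.9 CPM, while at high altitude H7 followed H4 with 718 CPM. The groups overlapped over nearly their whole range. In breast muscle the gene was sparse: at low altitude it had a count of 0 in L5, a median of 0.647 CPM and 60.6 CPM in L3, and at high altitude 0.0972 CPM in H9, a median of 1.53 CPM and 25.6 CPM in H4. A count of 0 among the counts of that L5 library allows a level of up to 0.229 CPM (3 counts, counting error only). H1 followed H4 among the high altitude muscles, with 14.6 CPM. In spleen the low altitude libraries ran from 21.9 CPM in L5 through a median of 80.5 CPM to 1709 CPM in L3, and the high altitude libraries from 38.1 CPM in H3 through a median of 346 CPM to 1979 CPM in H4. The next spleens were L6 at low altitude, with 168 CPM, and H7 at high altitude, with 756 CPM. In each tissue the same low altitude code and the same high altitude code were highest.

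**Figure D1:**
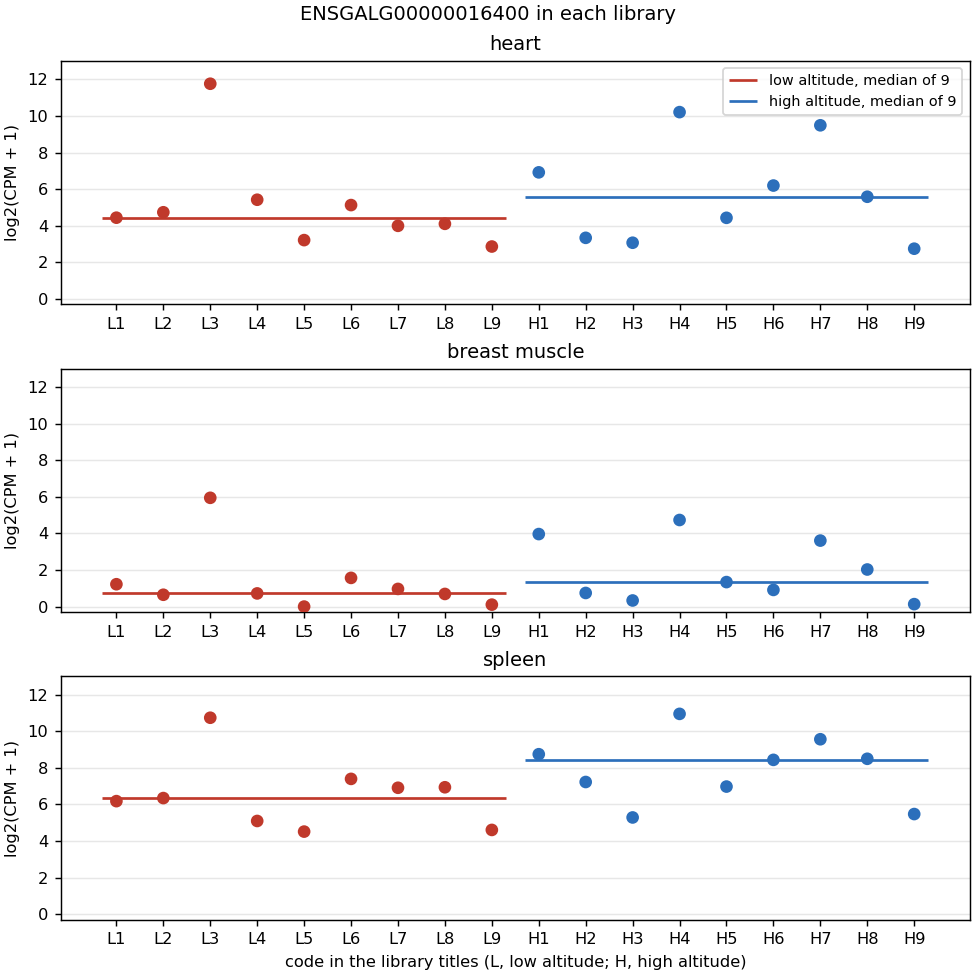
Level of ENSGALG00000016400 as log2(CPM + 1) in each of the 54 libraries, by tissue (panels) and code (horizontal axis), with a line at the median of each group of 9. L3 is the highest low altitude library and H4 the highest high altitude library in all 3 panels.

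The gene that followed it most closely was ENSGALG00000045085, with r of 0.974 (heart), 0.961 (breast muscle) and 0.963 (spleen). It carried far more counts. Its low altitude hearts had 30.5 CPM in the lowest library, a median of 124 CPM and 10920 CPM in L3, and its high altitude hearts 22.8, 274 and 6479 CPM, the last in H4. In breast muscle the low altitude values were 1.94, 6.49 and 416 CPM, the last in L3, and the high altitude values 2.43, 12.9 and 156 CPM, the last in H4. Spleen had 206, 1304 and 12800 CPM at low altitude and 369, 3367 and 17550 CPM at high altitude, again with L3 and H4 on top. Its slope on ENSGALG00000016400 was the steepest of the 60 in each tissue, at 0.97 in heart, 1.18 in muscle and 0.98 in spleen in log2 units per log2 unit. It was the only 1 of the 60 with a slope above 1 in any tissue, and that was in breast muscle. That slope is of log2(CPM + 1), where the added 1 narrows low levels such as those of ENSGALG00000016400 in muscle. In CPM, ENSGALG00000045085 rose less there in the highest library of each altitude group. Its highest low altitude muscle was 64.18 times the group median, against 93.71 times for ENSGALG00000016400. At high altitude the values were 12.04 and 16.74 times, in that order. Each of these values rests on 1 library, and the low altitude median of ENSGALG00000016400 was a count of 6 in L4. In the H1 muscle the order was the other way. ENSGALG00000045085 had 149.3 CPM there against a group median of 12.93, and ENSGALG00000016400 14.6 CPM against 1.529. The slopes of the other genes were below 1 in each tissue. Over the 60 genes the median slope was 0.52 in heart, 0.35 in muscle and 0.43 in spleen. A slope below 1 did not mean a smaller rise in every group. In high altitude hearts the highest library of ENSGALG00000013575 was 28.86 times the group median, against 25.2 times for ENSGALG00000016400. The lowest slopes were 0.15 in heart for ENSGALG00000006427, 0.13 in breast muscle for ENSGALG00000042001 and 0.16 in spleen for ENSGALG00000004661.

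ENSGALG00000028982, ENSGALG00000013723, ENSGALG00000041621 and ENSGALG00000013575 came next in the order of the smallest r. In low altitude hearts ENSGALG00000028982 had a lowest value of 2.90 CPM, a median of 10.3 CPM and 684 CPM in L3, and in high altitude hearts 2.93, 24.1 and 425 CPM, the last in H4. For ENSGALG00000013723 the low altitude hearts had 18.7, 67.1 and 3890 CPM and the high altitude hearts 26.3, 202 and 4068 CPM, with the same codes on top. ENSGALG00000041621 kept a higher floor, with 154, 332 and 3186 CPM in low altitude hearts and 265, 477 and 2137 CPM in high altitude hearts. ENSGALG00000013575 differed in its top high altitude heart, which was H7 with 2575 CPM, followed by H4 with 2218 CPM. Its low altitude hearts had 9.73, 50.4 and 2017 CPM, and the lowest and median high altitude hearts 11.2 and 89.2 CPM. In breast muscle and spleen L3 was the highest low altitude library for all 4. The highest high altitude muscle was H4 for ENSGALG00000041621 and ENSGALG00000013575 and H1 for ENSGALG00000028982 and ENSGALG00000013723. H4 was the highest high altitude spleen for all but ENSGALG00000013575, where H7 had 1039 CPM and H4 928 CPM.

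The smallest r of the 60 genes was above 0.9 for 13, between 0.8 and 0.9 for 16, between 0.7 and 0.8 for 20 and between 0.6 and 0.7 for 11. Just inside the rank limit were ENSGALG00000041192 with a smallest r of 0.6533 and ENSGALG00000021569 with 0.6532. Just outside were ENSGALG00000007158 with 0.647 and ENSGALG00000045511 with 0.631, so the list ends at a rank and not at a gap. Breast muscle gave the smallest r for 39 genes, spleen for 15 and heart for 6. The median r was 0.93 in heart (range 0.69 to 0.98), 0.82 in muscle (0.65 to 0.98) and 0.93 in spleen (0.65 to 0.98). These values chose the genes and are a description. Among themselves, over 1770 pairs of the 60, the median r was 0.87 in heart, 0.73 in muscle and 0.85 in spleen. There were 0 pairs below 0 in any tissue, and the lowest r was 0.41, 0.14 and 0.36, in that order. The r of these pairs follows in part from choosing each gene by its r with the same gene, and is also a description.

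Nearly all of the genes peaked in a few codes. Among the low altitude libraries, L3 held the highest level of 60 of the 61 genes in heart, 61 in muscle and 56 in spleen. Of all 9413 genes that met the CPM minimum, L3 was highest for 9.33% in heart, 14.6% in muscle and 12.5% in spleen. The high altitude libraries shared the top between codes: H4 was highest for 38 genes, H7 for 19 and H1 for 4 in heart, against 16.6%, 13.4% and 18.3% of the 9413 genes. In breast muscle H1 was highest for 32, H4 for 21 and H7 for 6, against 18.1%, 13% and 10.1%. In spleen H4 led for 56 genes and H7 for 5, against 18% and 11.1%. Since the genes were chosen for following one gene within each tissue, these counts describe the choice and were not tested.

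**Figure D2:**
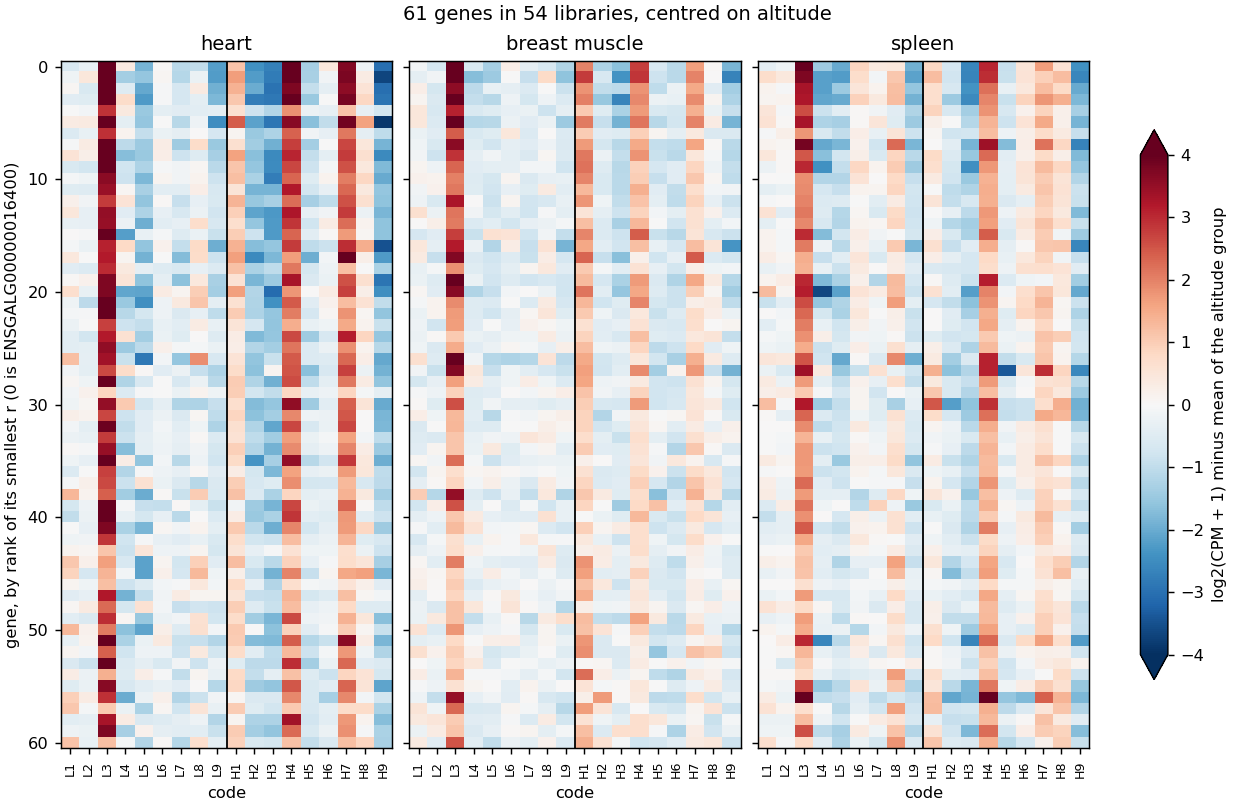
Level of the 61 genes (rows, ENSGALG00000016400 on top, then by falling smallest r) in the 54 libraries (columns, by tissue and code) as log2(CPM + 1) minus the mean of the altitude group, with colours that saturate at the ends of the scale. L3 stands out in red in the 3 tissues, H4 and H7 in heart and spleen, and H1, H4 and H7 in breast muscle.

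Over the 61 genes together, the mean level was 4.61 ± 1.29 log2(CPM + 1) in low altitude hearts and 5.23 ± 1.48 in high altitude hearts (SD, n = 9 each). Breast muscle had 2.32 ± 0.82 at low and 2.72 ± 0.78 at high altitude, and spleen 7.08 ± 0.95 at low and 7.64 ± 0.998 at high altitude (SD, n = 9 each). In counts, the 61 genes made up 0.107% of the low altitude heart library with the least, a median of 0.182% and 4.33% of L3, against 0.12%, 0.313% and 4.13% at high altitude, the last in H4. In breast muscle their share was 0.0280%, 0.0344% and 0.195% at low altitude and 0.0239%, 0.0412% and 0.284% at high altitude, the highest in L3 and H1. Spleen libraries held 0.816%, 1.44% and 6.92% at low altitude and 0.932%, 2.68% and 8.02% at high altitude, the highest in L3 and H4. The altitude groups overlapped in each tissue.

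The codes kept much of their order from tissue to tissue. For ENSGALG00000016400, centred on altitude, r over the 18 codes was 0.94 between heart and breast muscle, 0.91 between heart and spleen and 0.91 between breast muscle and spleen, with Spearman's rho of 0.87, 0.87 and 0.89 in the same order. Without L3 and H4, the codes farthest from the median, r was 0.85, 0.80 and 0.79. Among the 9 low altitude codes alone r was 0.98, 0.88 and 0.93, and among the 9 high altitude codes 0.91, 0.95 and 0.89. The mean level of the 61 genes gave r of 0.92 (rho 0.91), 0.95 (rho 0.95) and 0.85 (rho 0.85). With its 2 farthest codes left out, L3 and H4 for the pairs with heart and L3 and H1 for breast muscle and spleen, r was 0.83, 0.90 and 0.87.

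Single genes of the list varied in how far they followed the code. Between heart and breast muscle the median r of the 61 genes was 0.78 (range 0.43 to 0.95), and 60 exceeded 0.5, against 10.1% of the 9413 genes. Between heart and spleen it was 0.88 (0.62 to 0.97), with all 61 above 0.5, against 21.4%. Between breast muscle and spleen it was 0.71 (0.34 to 0.93), with 51 above 0.5, against 9.73%. The rule took r within each tissue and not between tissues, but every gene was chosen for following ENSGALG00000016400, which itself followed the code. These correlations are therefore a description.

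**Figure D3:**
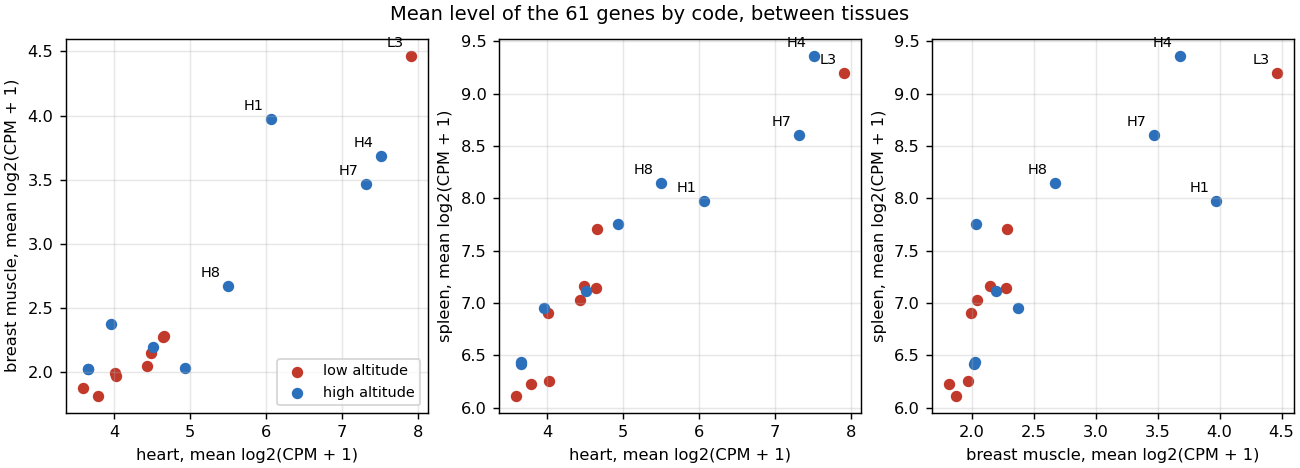
Mean log2(CPM + 1) of the 61 genes by code, plotted between each pair of tissues, 18 codes per panel, with the 5 highest codes named. L3, H4, H7, H1 and H8 lie at the upper end on both axes of each panel.

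Over the 15 codes other than L3, H4 and H7, the median r with ENSGALG00000016400 was 0.72 in heart, 0.69 in muscle and 0.83 in spleen, and 52, 48 and 55 of the 60 genes stayed above 0.5, in that order. The lowest fell to 0.01 in heart, 0.02 in muscle and 0.29 in spleen. For the other 9352 genes the median r over the 15 codes was 0.00 in heart, 0.04 in muscle and 0.01 in spleen. These codes are among those used to choose the genes, so the values are a description. When the selection was repeated on those 15 codes, 37 of the 60 genes were chosen again.

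Spread between codes exceeded the median of the 9413 genes for 61 of the 61 genes in heart, 58 in muscle and 61 in spleen. The genes were chosen on these same centred values, for following a gene of large spread. The spreads below are therefore a description and were not tested. In heart the SD of log2(CPM + 1) within altitude had a median of 1.48 over the 61 genes (range 0.54 to 2.68), against 0.40 over the 9413 genes, and 57 genes lay above the 95th percentile of 0.77. Breast muscle had a median of 0.83 (0.35 to 2.15), against 0.46, with 22 genes above the 95th percentile of 0.95. Spleen had 0.95 (0.33 to 2.11), against 0.32, with 51 above 0.72. ENSGALG00000016400 ranked 2 of 9413 in heart, 27 in muscle and 10 in spleen. ENSGALG00000045085 had the largest SD averaged over the tissues, 2.24, and ENSGALG00000006427 the smallest, 0.48. Without L3, H4 and H7 the median SD in heart was 0.82. Low counts limit the muscle values: 9 of the 61 genes had a median count under 10 there, against 1 in spleen and 0 in heart.

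ENSGALG00000006427 shows the shallow end of the list. In low altitude hearts it had 3.95 log2(CPM + 1) in L4, a median of 4.90 and 5.91 in L3, and in high altitude hearts 4.20 in H9, a median of 4.85 and 5.68 in H7. Its low altitude muscles ran from 4.84 in L9 through 5.28 to 6.06 in L3, and its high altitude muscles from 4.85 in H9 through 5.30 to 6.14 in H4. In spleen it had 6.03 in L9, a median of 6.61 and 7.66 in L3 at low altitude, and 6.34 in H9, a median of 6.83 and 7.82 in H4 at high altitude. L3 was again the highest low altitude library in each tissue, but within a range under 2 log2 units.

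**Figure D4:**
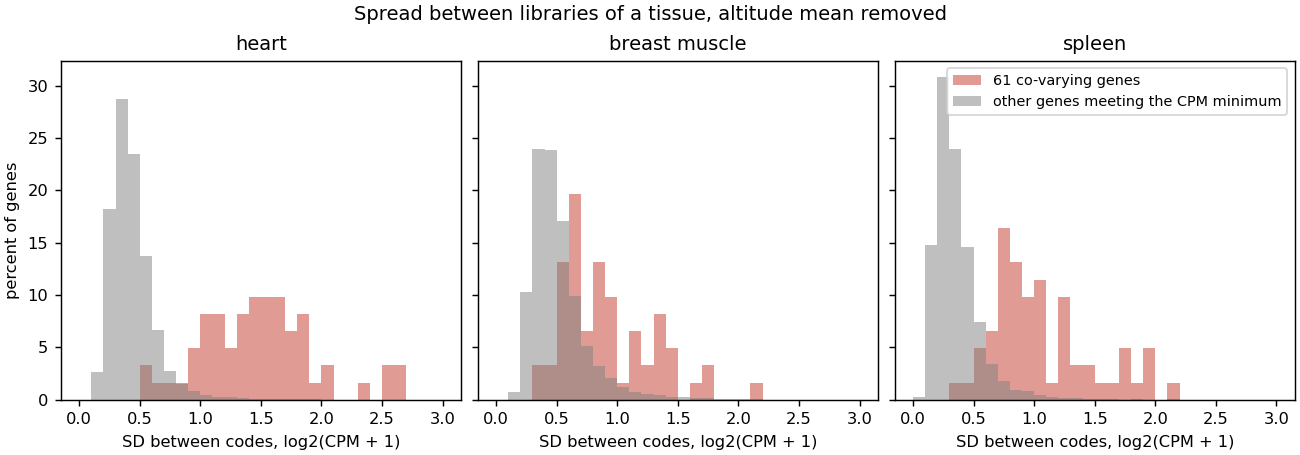
Distribution of the SD between codes of log2(CPM + 1), altitude mean removed, for the 61 genes (red) and the other genes that met the CPM minimum (grey), as percent of genes in each tissue. The medians of the 61 genes are 1.48 in heart, 0.83 in muscle and 0.95 in spleen.

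Sequencing depth and tissue make-up were set beside the level of ENSGALG00000016400 in 6 relations over the 18 libraries of a tissue. In heart, r with log2 total count was -0.45 (permutation p = 0.0608, adjusted over the 6 relations 0.365) and rho -0.34 (p = 0.174, adjusted 0.522). With the 2 farthest libraries left out r was -0.47, and it was -0.52 among the low and -0.44 among the high altitude hearts. In breast muscle r with the share of counts in muscle-selective genes was -0.36 (permutation p = 0.141, adjusted 0.423) and rho -0.14 (p = 0.586, adjusted 0.615). Left without its 2 farthest libraries that r was -0.21. It was 0.64 among the low and -0.84 among the high altitude muscles, so the pooled sign held at high but not at low altitude. The share in heart-selective genes gave r of -0.12 (permutation p = 0.625, adjusted 0.666) and rho of -0.37 (p = 0.135, adjusted 0.522), -0.53 without its 2 farthest libraries, 0.54 among the low and -0.62 among the high altitude hearts. The share in spleen-selective genes gave r of 0.18 (permutation p = 0.475, adjusted 0.666) and rho of 0.15 (p = 0.554, adjusted 0.615), 0.28 without its 2 farthest libraries, 0.61 among the low and -0.33 among the high altitude spleens. That share includes 1 gene of the list itself, ENSGALG00000028256, whose r with ENSGALG00000016400 in spleen was 0.85. The spleen relation therefore partly repeats the selection, and no value without that gene is given. The heart and muscle shares include 0 genes of the list. In each tissue the relation with the share of selective genes had opposite signs at the 2 altitudes, but the low altitude values lean on L3. Among the low altitude libraries L3 had the highest level in each tissue. Its share was also the highest of them in heart, at 12.1%, and in spleen, at 8.61%. In muscle its share was 28.9%, second to 29.8% in L6. The sign among the low altitude libraries without L3 was not computed. Total count gave r of -0.11 in breast muscle (permutation p = 0.666) and -0.12 in spleen (permutation p = 0.626), both with an adjusted p of 0.666, and rho of -0.13 and -0.18 (adjusted 0.615 each). Without the 2 farthest libraries these were 0.14 and -0.07, among the low altitude libraries -0.06 and 0.18, and among the high altitude libraries -0.04 in both. None of the 6 passed at an adjusted p of 0.05. These p-values are of the 18 pooled libraries, and the values within an altitude were not tested.

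The altitude comparison asked whether the genes differed between low and high altitude birds. The selection removed the altitude means, so it did not use this contrast. It did use the variation within altitude, which is the error of the test. In heart the median SD was 1.48 for the 61 genes, against 0.40 over the 9413 genes. A lack of calls therefore does not show equal levels. The genes were also chosen for rising and falling together over these libraries, so their folds are not independent of each other. Counts of genes by sign or by unadjusted p, here and with libraries left out, are therefore a description. By edgeR's quasi-likelihood test, fitted over all genes that passed its filter on low counts, 0 of the 61 genes passed a Benjamini-Hochberg adjusted p of 0.05 in heart, where 0% of 11872 genes did. An unadjusted p under 0.05 was reached by 2 genes, both lower at low altitude, where 6.05% of all genes reached it. The log2 fold changes, low over high altitude, were positive for 11 genes and negative for 50, with a median of -0.34, against 0.00 over all genes. Limma-voom called 0 of the 61 genes. DESeq2 called 3, all lower at low altitude, where it called 0.185% of all genes. They were ENSGALG00000045085 at -3.58 (SE 0.85, DESeq2 adjusted p = 0.0329), ENSGALG00000028982 at -3.18 (SE 0.80) and ENSGALG00000038140 at -2.90 (SE 0.73). By edgeR ENSGALG00000045085 had -0.09 (SE 1.298).

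For ENSGALG00000016400 the log2 fold change was 0.74 in heart (SE 1.37, edgeR adjusted p = 0.946), 0.20 in muscle (SE 1.15, adjusted p = 0.943) and -0.85 in spleen (SE 0.87, adjusted p = 0.938). Without L3 its fold was -3.52 in heart, -3.06 in muscle and -2.55 for spleen. Among negative folds in heart the smallest p belonged to ENSGALG00000011190. In low altitude hearts it had 1.27 log2(CPM + 1) in L5, a median of 3.14 and 6.33 in L3, and in high altitude hearts 2.16 in H2, a median of 4.59 and 9.79 in H7. H7 lay well above H4, the next high altitude heart at 6.38, and the groups overlapped. The log2 fold change was -3.05 (SE 1.12, edgeR adjusted p = 0.781), and -0.96 without H7. On the positive side ENSGALG00000026422 had 0.42 (SE 0.59, edgeR adjusted p = 0.925), which was -0.70 without L3.

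In breast muscle 53 of the 61 genes passed the low count filter, and 0 of them passed the threshold by edgeR, where 0.00988% of 10120 genes did. Unadjusted p under 0.05 came to 5 genes, all lower at low altitude, against 18.2% of all genes (6.48% higher and 11.7% lower). Positive folds numbered 13 of the 53 and negative ones 40, and the median was -0.29, against -0.05 over all genes. Limma-voom called 0. DESeq2 called 3 of the 53, all lower at low altitude, where it called 4.61% of all genes. They were ENSGALG00000011190 at -3.03 (SE 0.64, DESeq2 adjusted p = 0.000971), ENSGALG00000016964 at -2.15 (SE 0.57) and ENSGALG00000046098 at -1.01 (SE 0.28). These genes were named after their values were seen. ENSGALG00000005947 had the smallest p of the negative folds. It ran from 3.10 log2(CPM + 1) in L5 through a median of 3.81 to 4.78 in L3 among low altitude muscles, and from 3.11 in H5 through 4.08 to 6.50 in H1 among high altitude muscles. The groups overlapped at their lower ends, and H1, H4, H7 and H8, the muscles with the lowest shares of muscle-selective genes, lay above all low altitude libraries. The part of that share in this difference was not tested. Its log2 fold change was -1.20 (SE 0.41, edgeR adjusted p = 0.139). With H1, H4, H7 and H8 left out, the fold was 0.06. On the positive side ENSGALG00000027184 had 0.92 (SE 0.76, edgeR adjusted p = 0.538), with 5.33 in L3 and at most 1.88 in the other low altitude muscles. That fold was -0.85 without L3.

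In spleen 60 of the 61 genes were tested and 0 passed by edgeR, where 0% of 13092 genes did. At an unadjusted p under 0.05 there were 5, all lower at low altitude, against 5.77% of all genes. Folds were positive for 2 genes and negative for 58, with a median of -0.43, against 0.00 over all genes. Limma-voom and DESeq2 each called 0 of them, and DESeq2 called 0.153% of all genes. ENSGALG00000038140, with the smallest p of the negative folds, had 2.46 log2(CPM + 1) in L4, a median of 5.15 and 8.08 in L3 at low altitude, and 4.28 in H3, a median of 7.61 and 9.22 in H4 at high altitude. Apart from L3, no low altitude spleen exceeded 5.73, which is below the high altitude median. Its log2 fold change was -1.80 (SE 0.70, edgeR adjusted p = 0.836). ENSGALG00000026152, on the positive side, had 0.44 (SE 0.44, edgeR adjusted p = 0.938) with its highest values in L3 and H4, and -0.08 without L3.

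The size and direction of these folds depended on a few libraries. Without L3, the 61 genes had 0 positive and 61 negative folds in heart, with a median of -1.68, and 51 reached an unadjusted p under 0.05, against 6.72% of all genes in that fit. Breast muscle then had 2 positive and 51 negative folds, a median of -0.99 and 34 genes at that p, against 17.2%. Spleen had 0 positive and 60 negative, a median of -0.92 and 41 genes, against 7.60%. Still 0 of the 61 genes passed the adjusted threshold in each tissue. Single high altitude libraries moved the folds towards 0. In heart the median was -0.03 without H4, with 30 positive and 31 negative folds, and -0.03 without H7, with 27 and 34. It was -0.08 in breast muscle without H1, -0.18 there without H4, and -0.16 in spleen without H4. Depth differed with altitude in heart, with overlapping ranges. The median total was 14.7 M counts at low altitude (L1) and 13.3 M at high altitude (H5). A depth covariate there thus takes up part of the altitude difference, and the 2 were not separated. With log2 total count as a covariate, 58 folds were positive and 3 negative in heart, with a median of 0.85. At an unadjusted p under 0.05, 5 genes were higher, against 6.36% of all genes. With that covariate the median was -0.21 in breast muscle (16 positive, 45 negative) and -0.50 in spleen (5 positive, 56 negative). Leaving out H1, H4, H7 and H8, high altitude codes with high levels, turned the folds the other way: 61 of 61 were positive in heart with a median of 1.25, 47 of 53 in breast muscle with a median of 0.50 and 57 of 60 in spleen with a median of 0.34, and 0 passed. Without L3, H4 and H7 the folds were positive for 3 and negative for 58 in heart, 5 and 46 in breast muscle, and 9 and 51 in spleen. Codes left out for their level in these genes are chosen by the outcome, so these values show what the result rests on and not a result of their own.

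Interaction tests, which ask if tissues differed in their altitude difference, called 0 of the 61 genes for heart minus breast muscle, where 0% of 12373 genes passed, 0 for heart minus spleen, where 0% of 13918 passed, and 0 for breast muscle minus spleen, where 0% of 13597 passed. Limma-voom called 0 in each as well. At an unadjusted p under 0.05 the counts were 0 of the 61 for heart minus breast muscle (10.7% of all genes), 1 for heart minus spleen (3.57%) and 1 for breast muscle minus spleen (12.5%). The smallest edgeR adjusted p among the 61 were 0.602, 1 and 0.386 in that order. The errors were large: ENSGALG00000016400 had an interaction of 0.50 (SE 1.81) for heart minus breast muscle, 1.54 (SE 1.65) for heart minus spleen and 1.04 (SE 1.44) for breast muscle minus spleen.

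The level of the genes differed between tissues. By mean log2(CPM + 1) over the 18 libraries of a tissue, 58 of the 61 genes were highest in spleen, then heart, then breast muscle. The exceptions were ENSGALG00000021627 (heart, spleen, breast muscle), ENSGALG00000027184 (heart, breast muscle, spleen) and ENSGALG00000006427 (spleen, breast muscle, heart), named after their values were seen. These levels were scaled within each tissue, so they are not on a common scale between tissues, and the order is a description. The edgeR folds below were scaled over both tissues of a pair. They differ from the order in sign for some genes. The selection asked for 1 CPM in each tissue but did not otherwise use the level. Counts are not divided by transcript length here, so CPM values of different genes are not compared as transcript levels.

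**Figure D5:**
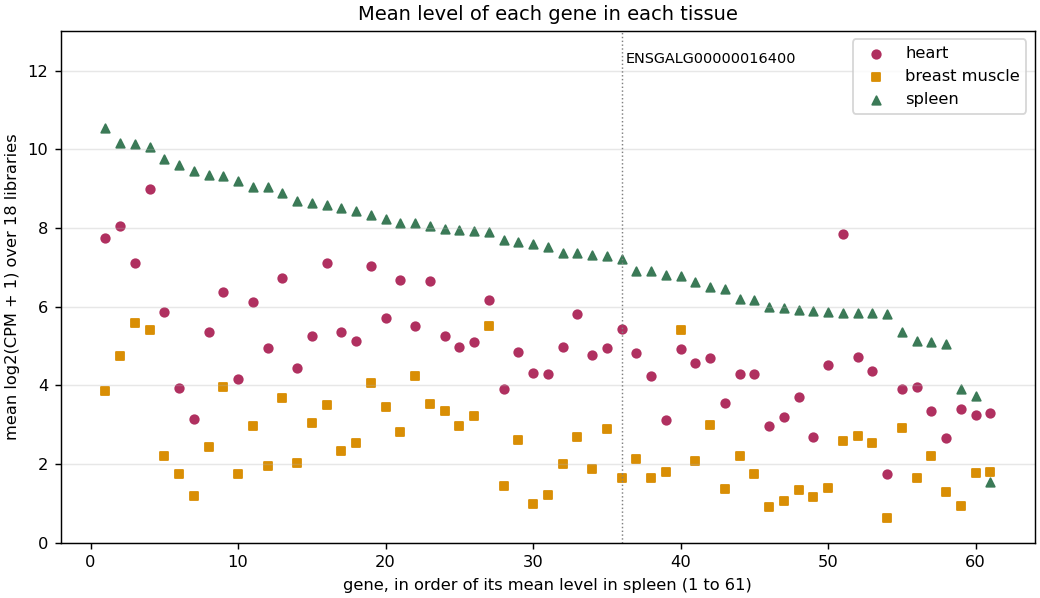
Mean log2(CPM + 1) over 18 libraries in heart (circles), breast muscle (squares) and spleen (triangles) for each of the 61 genes, ordered by the value in spleen, with a dotted line at ENSGALG00000016400. Spleen is on top and breast muscle at the bottom for 58 genes. Levels were scaled within each tissue and are not on a common scale between tissues.

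Heart exceeded breast muscle in 60 of the 61 genes by edgeR (adjusted p under 0.05, 36 libraries in the fit), where 41.6% of 11964 genes were higher, and 1 gene was lower, where 37.2% were. The median log2 fold change was 2.99, against 0.08 over all genes. ENSGALG00000016400 had 5.31 (SE 1.06, edgeR adjusted p = 2.67e-05). ENSGALG00000006427 was the lower one, at -0.66 (SE 0.16, edgeR adjusted p = 0.00032). ENSGALG00000031916 had the lowest mean in both tissues, 6.73 CPM in heart and 1.02 CPM in breast muscle, each scaled within its tissue. Scaled over both tissues, its log2 fold was 2.49 (SE 0.81, edgeR adjusted p = 0.00575). It was listed at 0 in 1 heart and 5 breast muscle libraries. Without H1, H4, H7 and H8, 57 of the 60 genes tested were called, 1 of them lower in heart, against 78.1% of all genes called.

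Breast muscle was lower than spleen in 59 of the 61 genes, where 48.1% of 13215 genes were lower, and higher in 0, where 38.6% were. DESeq2 gave 0 higher and limma-voom 1, and 0 of the 61 were higher at an unadjusted edgeR p under 0.05. The median log2 fold change was -3.79, against -0.27 over all genes, and ENSGALG00000016400 had -4.24 (SE 0.81, edgeR adjusted p = 1.05e-05). The genes not called were ENSGALG00000006427, at 0.01 (SE 0.15), and ENSGALG00000027184, at 0.28 (SE 0.85). ENSGALG00000027184 had the lowest mean in spleen, 9.80 CPM, most of it in H4 and L3, which reached 6.14 and 6.01 log2(CPM + 1), while 3 spleens were at 0. Without L3, H4 and H7 its fold was 2.43 and was called (edgeR adjusted p = 0.00119). ENSGALG00000007651, with the highest mean log2 level in breast muscle, averaged 51.0 CPM there and 1528 CPM in spleen, each scaled within its tissue. Scaled over both tissues, its log2 fold was -3.46 (SE 0.33, edgeR adjusted p = 2.2e-12). Without H1, H4, H7 and H8, 59 of the 61 genes were again lower in breast muscle, against 49.9% of all genes.

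Heart and spleen lay closer together. Of the 61 genes 26 were lower in heart by edgeR, where 43.7% of 13533 genes were, and 4 were higher, where 39% were. The median log2 fold change was -0.61, against -0.10 over all genes. The 4 higher genes, named after their values were seen, were ENSGALG00000021627 at 2.89 (SE 0.59, edgeR adjusted p = 2.97e-05), ENSGALG00000003614 at 1.87 (SE 0.48), ENSGALG00000027184 at 1.85 (SE 0.79) and ENSGALG00000004239 at 1.51 (SE 0.47). ENSGALG00000021627 had 6.46 log2(CPM + 1) in L9, a median of 7.47 and 10.33 in L3 in low altitude hearts, and 6.07 in H9, a median of 7.74 and 10.72 in H7 in high altitude hearts. Its low altitude spleens ran from 4.27 in L5 through 5.48 to 9.17 in L3 and its high altitude spleens from 2.49 in H5 through 6.39 to 8.99 in H4. The highest spleens thus overlapped the hearts in levels scaled within each tissue.

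Calls in this comparison changed with the libraries used. Without L3, H4 and H7, 43 of the 61 genes were lower in heart, against 42.9% of all genes, and 2 higher, against 38.3%, with a median log2 fold change of -1.51. ENSGALG00000003614 and ENSGALG00000004239 were then no longer called (0.16 and 0.47), and with limma-voom they were not either. By mean log2 level both were higher in spleen, but those levels were scaled within each tissue and are not on the scale of the folds. Without H1, H4, H7 and H8, 34 of the 61 genes were called, against 81.4% of all genes. Of these, 31 were lower in heart, against 43% of all genes. With the code as a block, 46 genes were lower, against 45.4% of all genes, and 4 higher, against 38%, although the labels do not say that a code pairs libraries. For ENSGALG00000016400 the mean level, scaled within each tissue, was 5.43 log2(CPM + 1) in heart and 7.22 in spleen. The edgeR log2 fold change, heart over spleen and scaled over both tissues, was 1.11 (SE 0.85, adjusted p = 0.226). The sign turned to -0.88 without L3, H4 and H7, to -0.59 with limma-voom and to -0.91 with DESeq2, with adjusted p of 0.0541, 0.45 and 0.163. With the code as a block it was -0.64 and was called (edgeR adjusted p = 0.0382).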

How the data were processed

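Each of the 54 deposited files holds the authors' raw counts for one library, as whole numbers per gene. The submitters' processing notes list FastQC, featureCounts, HISAT2 2.0.4, Cuffdiff, Cufflinks and galGal4, with no roles. Per the labels' protocols, the kit was stranded, and how strand was treated in counting is not stated, so overlapping, antisense or near-identical genes are uncertain. There were 0 pairs of identical libraries.

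Levels are log2(CPM + 1) after TMM scaling within a tissue in edgeR 4.0.16 (R 4.3.3). Altitude was tested per tissue (9 against 9 libraries), and tissues and the interaction of tissue and altitude over pairs of tissues with altitude in the model, by edgeR's robust quasi-likelihood test after its default filter on low counts, with Benjamini-Hochberg adjustment over all genes tested. Folds are given as log2, low over high altitude or the tissue named first over the other, and SE is the fold change over the root of F. Correlation p-values are two-sided, from 100000 permutations. Genes selective for a tissue had at least 20 CPM and 32 times the mean of either other tissue. The fits and the selection were tested on simulated counts. Alternatives were RLE factors, other filters, another pseudocount, Spearman's correlation, DESeq2 1.42.0, limma 3.58.1 voom, log2 total count as a covariate, blocks, and leaving out libraries.

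The 61 genes, the lists and the alternatives were chosen with earlier results of these data known. Named were ENSGALG00000016400, the 5 genes with the highest smallest r, those at the rank limit, per tissue the smallest altitude p in each direction and the highest and lowest mean level, and the largest and smallest SD; the ends of the slopes were named after their values were seen. Lists of gene symbols, cell type markers among them, could not be tested without names.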

Additional observations from a re-analysis of the deposited data

Results flagged for a closer look

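In 48 sets of 9 libraries (ENSGALG00000016400, the 5 genes that followed it most closely, the mean level of the 61 genes and their share of the counts, per tissue and altitude), the gap between the highest or lowest library and the next was set against the range. It exceeded Dixon's 95% critical value for 9 values in 21 sets. The 1 in 20 groups that chance would flag is no reference here. The genes were chosen on these same values, for rising and falling with ENSGALG00000016400. The sets also share libraries and genes, so they are not independent, and the flags are a description.

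Of the 21, 20 had L3 as the highest low altitude library. In heart, L3 stood at 11.76 log2(CPM + 1) for ENSGALG00000016400 (next 5.42), 13.41 for ENSGALG00000045085 (next 7.69), 9.42 for ENSGALG00000028982 (next 4.38), 11.93 for ENSGALG00000013723 (next 7.27), 11.64 for ENSGALG00000041621 (next 9.15) and 10.98 for ENSGALG00000013575 (next 6.25). The mean level of the 61 genes in that library was 7.91 (next 4.66), and their share of its counts was 4.33% (next 0.285%).

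In breast muscle, L3 stood at 5.95 for ENSGALG00000016400 (next 1.57), 8.705 for ENSGALG00000045085 (next 4.01), 4.63 for ENSGALG00000028982 (next 1.33), 7.17 for ENSGALG00000013723 (next 3.10), 8.17 for ENSGALG00000041621 (next 5.54) and 6.97 for ENSGALG00000013575 (next 2.70). The mean level was 4.47 (next 2.28) and the share 0.195% (next 0.0416%).

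In spleen, L3 stood at 10.74 for ENSGALG00000016400 (next 7.40), 12.25 for ENSGALG00000041621 (next 10.15) and 11.04 for ENSGALG00000013575 (next 8.34), with a share of 6.92% (next 2.68%). The remaining set was the share of the 61 genes in high altitude spleens, where H4 had 8.02% and the next library 4.37%. As mean log2 levels the spleens were not flagged: H4 had 9.36 (next 8.61) and L3 9.19 (next 7.71). What sets L3 and H4 apart was not tested.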

How the results depend on the processing

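The altitude calls of 0 genes did not move under RLE scaling, either low count filter, limma-voom, the depth covariate, the replicate block, or in any of the 18 fits per tissue that left out 1 library (0 to 0 in each tissue). DESeq2, which by default replaces outlying counts in groups of this size, called 3 of the 61 genes in heart (0.185% of all genes) and 3 of 53 in breast muscle (4.61%). The depth covariate turned the median fold in heart to 0.85, from 58 positive and 3 negative folds, where depth itself differed with altitude. Repeating the selection kept 49 (without L3) to 59 of the 60 genes when 1 code was left out, 37 without H4, H7 and L3, and 32 with a minimum of 5 CPM, which only 32 of the 60 reach in each tissue.

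Altitude folds of single genes, none called, changed sign as follows, and the cause was not tested. In heart, ENSGALG00000016400 had -0.78 with DESeq2, -0.70 with limma-voom, -1.30 with the replicate block, -0.95 without H4, H7 and L3, and -3.52 (without L3) to 1.70 (without H4) with 1 library left out. ENSGALG00000026422 had -0.67, -0.17, -0.24 and -0.15 in the same 4 settings and -0.70 to 0.67 with 1 library left out. ENSGALG00000011190 had 0.81 without H1, H4, H7 and H8. In breast muscle, ENSGALG00000016400 had -1.56 with limma-voom, -1.87 with the replicate block and -3.06 to 0.83 with 1 library left out. ENSGALG00000027184 had -0.83 with DESeq2, -0.035 with limma-voom, -0.73 without H4, H7 and L3 and -0.85 to 1.40 with 1 left out. ENSGALG00000005947 had 0.064 without H1, H4, H7 and H8. In spleen, ENSGALG00000016400 had 0.89 without those 4 codes, and ENSGALG00000026152 -0.081 to 0.69 with 1 library left out.

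Heart over spleen counted 2 higher and 42 lower genes with limma-voom (38.4% and 44.5% of all genes), 46 lower with the code as a block (45.4%), and 2 higher and 43 lower without H4, H7 and L3 (38.3% and 42.9%), an alternative chosen after seeing the data. ENSGALG00000016400 had -0.59, -0.91 with DESeq2, -0.64 with the code block (adjusted p = 0.0382) and -0.88. Breast muscle over spleen had 1 higher gene with limma-voom, the code block and without H4, H7 and L3. ENSGALG00000006427 had -0.051 with RLE factors, -0.064 with no filter and -0.051 with DESeq2, and ENSGALG00000027184 -0.71 with DESeq2. The interaction of breast muscle minus spleen for ENSGALG00000016400 was -0.11 with limma-voom and -0.63 without H4, H7 and L3. Without those codes the median SD in heart was 0.82, and the median r of the 61 genes was 0.60 (heart with breast muscle), 0.72 (heart with spleen) and 0.42 (breast muscle with spleen).

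Whether the replicate number pairs libraries was not settled. For same-numbered low and high altitude libraries, r exceeded 0.1 in 5 of 9 pairs in heart. It did so in 3 of 9 in breast muscle and 5 of 9 in spleen. Their median r was 0.20, -0.11 and 0.14, in that order. Same-coded libraries correlated above 0.1 in 13 of 18 pairs (heart with breast muscle), 16 (heart with spleen) and 11 (breast muscle with spleen). Here the median r was 0.15, 0.38 and 0.14. The tissue and interaction fits took same-coded libraries as independent, apart from the settings with the code as a block. Low counts limit the muscle values, where 9 genes had a median count under 10.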
